A study of Mus musculus with 18 samples.

Results

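Alpha and beta tubulins are the 2 proteins whose dimers build the microtubule. They are followed here as 10 mRNAs: Tuba1a, Tuba1b, Tuba1c and Tuba4a for alpha tubulin, and Tubb2a, Tubb2b, Tubb3, Tubb4a, Tubb4b and Tubb5 for beta tubulin. The members were found by symbol among the 13973 rows of the deposited count table, where all 10 listed symbols were present. The list was chosen by family name with earlier results of these libraries known, HHT and fraction changes among them, and it has no threshold. Which of those measured values led to it is not stated, so counts of tubulins that passed a test describe the family and support nothing beyond it. For the heavy fraction, where the family moved most, estimates of the tubulins are therefore given with their error and without p-values. Where tubulins are said to pass a threshold there, that too only describes the family. The table has 12 rows whose symbols begin with Tuba or Tubb, and the 2 outside the list are Tuba8 and Tubb6.

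The libraries came from acute forebrain slices of male C57BL/6N mice aged 28 to 35 days, called hippocampal in one label and hippocampal-cortical in another. Mice were wild type (WT) or Fmr1 knockout (KO), which lack the RNA-binding protein FMRP that is lost in fragile X syndrome. Slices were held for 30 min at 20 µM homoharringtonine (HHT) or in DMSO vehicle. HHT keeps newly started ribosomes from moving on, and the ones already elongating run off the mRNA. Each replicate pooled 10 slices from 2 or 3 mice into 1 lysate, which gave an input library (cleared lysate) and libraries of medium and heavy polysomes from a sucrose gradient. Under HHT there were 2 replicates for each genotype and fraction, and under vehicle 1, which makes 18 libraries from 4 HHT and 2 vehicle lysates. Every library was made from 200 ng of RNA, so a value tells how much of a fraction's RNA a gene holds. Fewer ribosome-bound copies and more of other RNA in the fraction cannot be told apart, nor can fewer cells and less RNA per cell.

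Microtubules grow and shrink at their ends by adding and losing tubulin dimers, and in neurons they fill axons and dendrites and carry transport. Mammals make several alpha and beta isotypes from separate genes: Tuba1a and Tubb2b are abundant in developing neurons, Tubb3 is the isotype used as a neuronal marker, Tubb4a is prominent in myelinating oligodendrocytes, and Tubb4b and Tubb5 are made widely. A cell also senses its free tubulin: when dimers are in excess, the factor TTC5 binds the first residues of a tubulin chain as it leaves the ribosome, and the mRNA being translated is degraded. New tubulin chains fold inside the chaperonin CCT, to which prefoldin hands them, and are then joined to dimers by dedicated cofactors.

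All 10 genes have 4 exons in the transcript used (GENCODE M21, on mm10), and their coding sequences run from 444 to 451 codons. The 3 near-identical alpha genes stand together on chromosome 15: Tuba1b (98931425 to 98934565), Tuba1a (98949837 to 98953703) and Tuba1c (99029891 to 99038110). Tuba4a lies on chromosome 1 (75214228 to 75219865). Tubb2a (34074274 to 34078007) and Tubb2b (34126748 to 34130466) are neighbours on chromosome 13. Tubb5 (35833921 to 35838306) and Tubb4a (57080066 to 57087782) lie on chromosome 17, Tubb4b on chromosome 2 (25222160 to 25224702) and Tubb3 on chromosome 8 (123411424 to 123422015). Coding sequences were 98.3% identical between Tuba1a and Tuba1b, 97.9% between Tuba1b and Tuba1c, 97.1% between Tuba1a and Tuba1c, and 96.5% between Tubb2a and Tubb2b. How reads shared by such copies were divided depends on the authors' estimates, so the split within Tuba1a, Tuba1b and Tuba1c, and within Tubb2a and Tubb2b, is uncertain. Tuba1c is the member most exposed to this, with 50.9 to 303.8 estimated counts per library, while no other member had fewer than 648.7.

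The start of the coding sequence is shown because TTC5 reads its product and because HHT holds the ribosome there. The first 30 coding bases of 4 members follow, with codons 1 to 4 in capitals. Codon 1 is ATG in all 10 members, codon 4 is TGC in the 4 alpha genes and ATC in the 6 beta genes, and codon 3 is GAG or GAA, both of which encode glutamate.
Tuba1a: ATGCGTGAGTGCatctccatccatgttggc
Tuba4a: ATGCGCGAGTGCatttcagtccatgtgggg
Tubb2a: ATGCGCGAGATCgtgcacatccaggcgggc
Tubb3: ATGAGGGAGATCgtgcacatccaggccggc

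The last coding bases are shown because the isotypes differ most there and because the tubulin-modifying enzymes act on this acidic tail. The last 60 coding bases before the stop codon follow for Tuba4a, Tubb2a and Tubb3, with glutamate codons in capitals. Glutamate codons number 8 of the last 20 in each of the 3. Tuba4a ends in GAG, a glutamate codon, and so does not encode the terminal tyrosine that is removed from and put back on other alpha tubulins.
Tuba4a: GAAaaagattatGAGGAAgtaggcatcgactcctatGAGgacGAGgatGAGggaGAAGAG
Tubb2a: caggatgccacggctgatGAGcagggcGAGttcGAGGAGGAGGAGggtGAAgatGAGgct
Tubb3: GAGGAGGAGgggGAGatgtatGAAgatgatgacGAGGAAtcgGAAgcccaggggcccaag

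Library totals ran from 6226237 to 13834652 estimated counts. Fmr1 stood at 4.62 to 8.53 CPM (counts scaled by library size) in KO libraries and 13.9 to 32.2 CPM in WT libraries, with no overlap. All 6 neuronal markers were measured, and their summed level was 5844 to 6386 CPM in vehicle heavy and 7600 to 9468 CPM in HHT heavy. The 5 oligodendrocyte markers summed to 1626 to 1680 CPM in vehicle heavy and 2659 to 3014 CPM in HHT heavy. The 5 astrocyte markers summed to 560 to 592 CPM in vehicle heavy and 396 to 544 CPM in HHT heavy. In heavy, 2 neuronal markers rose and 3 fell, 3 oligodendrocyte markers rose, and 3 astrocyte markers rose and 2 fell, while of all genes 27.1% rose and 24.7% fell. Microglial markers summed to 44.7 to 47.9 CPM in vehicle heavy and 28.9 to 46.8 in HHT heavy, and endothelial markers to 7.62 to 8.31 and 8.94 to 15.9. The 2 markers of oligodendrocyte precursors summed to 24.9 to 27.8 CPM in vehicle heavy and 43.9 to 73.4 in HHT heavy. In input the sums were also higher under HHT without overlap, at 8128 to 8962 CPM against 6606 to 7068 for neurons, 747 to 782 against 463 to 528 for astrocytes and 3076 to 3708 against 2509 to 2748 for oligodendrocytes. The same held in input for oligodendrocyte precursors (51.6 to 84.2 against 23.3 to 28.2 CPM), microglia (80.1 to 103 against 43.6 to 67.4) and endothelium (20.6 to 26.6 against 8.38 to 9.31). The part of these marker levels in the tubulin values was not tested.

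In vehicle input the tubulins spanned a wide range of levels per transcript length (rescaled TPM, the authors' value per transcript length). Tuba1a led with 3458 ± 95.4 (SD, n = 2), followed by Tubb4a with 2813 ± 124, Tubb2a with 1935 ± 57, Tuba1b with 1633 ± 34.7 and Tuba4a with 1151 ± 78.6. Tubb3, the neuronal isotype, held 874 ± 12.9, Tubb5 816 ± 18.3 and Tubb4b 810.1 ± 6.3, and the last 2 did not differ beyond the range of their libraries. Tubb2b, with 219 ± 12.4, and Tuba1c, with 24.2 ± 3, were the low members. Over all 6 input libraries the ranges of Tuba1a and Tubb4a, of Tubb2a and Tuba1b, and of Tubb3, Tubb5 and Tubb4b overlapped between neighbours. Together the 10 mRNAs made up 1.37% ± 0.04 (SD, n = 2) of the rescaled TPM in vehicle input.

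**Figure D1:**
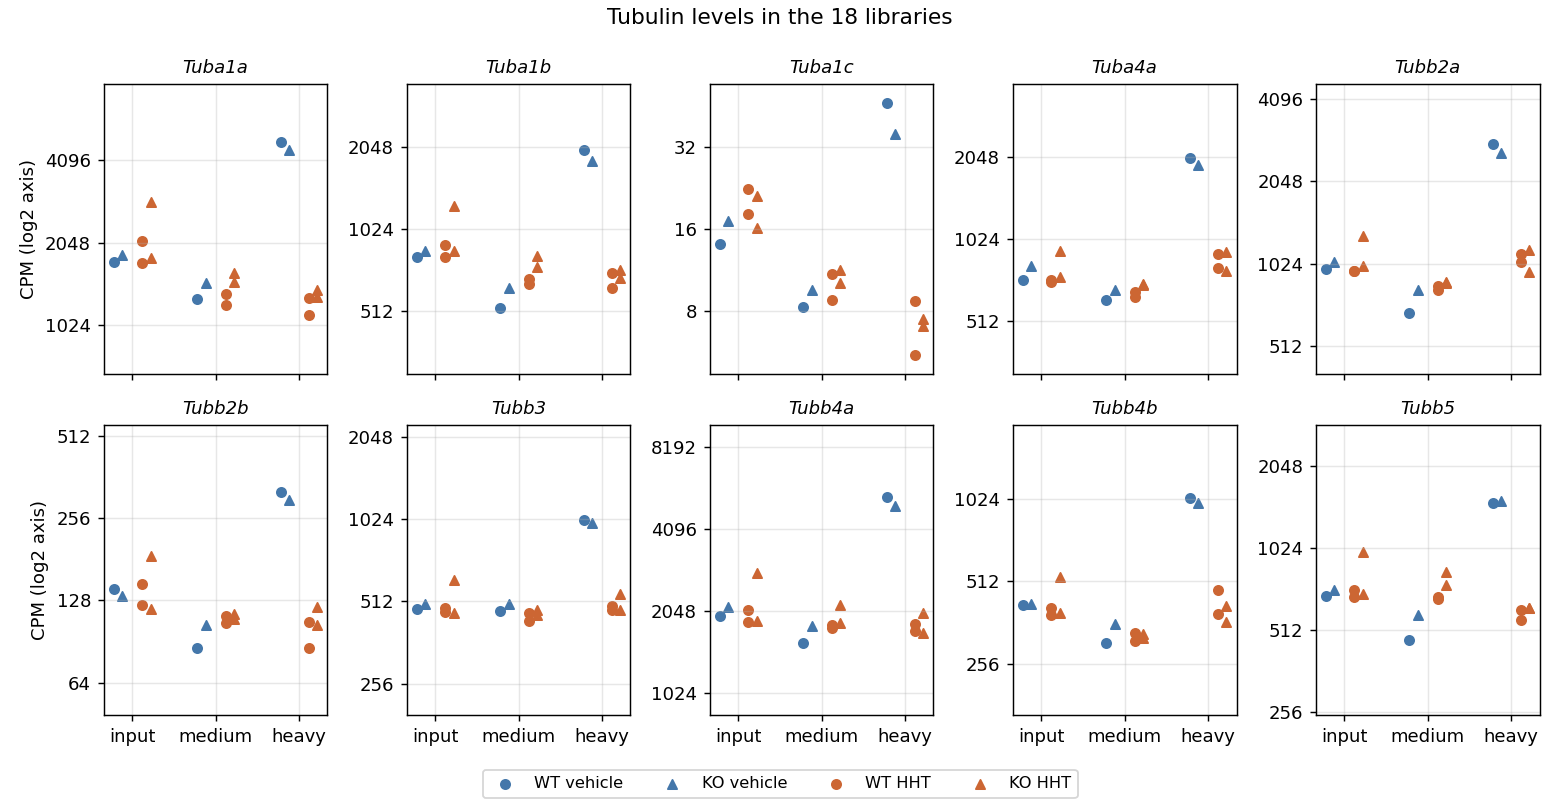
Level of each tubulin mRNA (CPM, log2 axis with its own range in each panel, each spanning the same fold) in input, medium and heavy libraries; each point is 1 library, circles are WT, triangles KO, blue vehicle and orange HHT. In every panel the 2 vehicle heavy libraries stand above all others, and the 4 HHT heavy libraries lie near or below the input level.

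In vehicle slices the comparison of fractions asks where on the gradient tubulin mRNA is found. All 10 mRNAs were higher in heavy than in input. Tuba1a held 1739 CPM in WT input and 1840.5 in KO input, against 4779.8 and 4462 in heavy. Tubb3 held 481 and 499 CPM in WT and KO input, against 1018 and 989 in heavy. Neither gene's input and heavy values overlapped. The heavy to input change ran from 1.03 ± 0.14 (SE, log2) for Tubb3 to 1.42 ± 0.14 for Tubb2a, with a median of 1.30, against a median of -0.02 over all genes. All 10 passed an adjusted p of 0.05 in edgeR as higher, as did 24.8% of all genes. Heavy against medium gave a median of 1.66 with a range from 1.05 for Tubb3 to 2.18 for Tuba1c, and all 10 passed as higher, as did 25.9% of all genes.

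Medium polysomes held less tubulin mRNA than input in vehicle slices for most members, by estimates from -0.79 ± 0.23 for Tuba1c to -0.01 ± 0.14 for Tubb3 (log2 ± SE). Tuba1b, Tuba1c and Tubb2a fell past the threshold (edgeR adjusted p = 0.0368, 0.0317 and 0.0434), as did 9.5% of all genes. With the lysate as a block, 7 of the 10 passed, and the share of all genes in that fit is not given here. Without the WT vehicle lysate, or without the KO one, 0 passed, and without either WT HHT lysate 1 did.

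HHT against vehicle compares how much of a fraction's RNA each mRNA holds with and without the drug. In the heavy fraction all 10 tubulins were lower under HHT, by 2.02-fold for Tubb3 to 5.68-fold for Tuba1c. Among the alpha genes, Tuba1a held 4779.8 CPM in WT vehicle heavy and 4462 in KO. Under HHT it held 1287 and 1109 CPM in WT and 1292 and 1373 in KO, so the treatments did not overlap. The change of Tuba1a was -1.87 ± 0.16 (log2 ± SE). Tuba1b held 1997 and 1826 CPM under vehicle, against 705 and 625 in WT and 681 and 725 in KO under HHT, a change of -1.48 ± 0.13. Tuba4a, the isotype that lacks the encoded tyrosine, held 2032 and 1911 CPM under vehicle, against 798 and 899 in WT and 783 and 918 in KO under HHT. Its change of -1.21 ± 0.11 was the smallest of the alpha genes. Tuba1c, at 46.3 and 35.6 CPM under vehicle, held 8.69 and 5.53 in WT and 7.06 and 7.5 in KO under HHT, and changed by -2.51 ± 0.19.

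The beta genes showed the same separation in heavy. Tubb4a, the beta isotype with the highest level, held 5337 and 4982 CPM in WT and KO vehicle, against 1726 and 1829 in WT and 1702 and 2013 in KO under HHT. Its change was -1.50 ± 0.14 (log2 ± SE). Tubb2a held 2798 and 2597 CPM under vehicle, against 1040.5 and 1108 in WT and 954 and 1149.6 in KO under HHT, a change of -1.34 ± 0.12. Its near copy Tubb2b held 319 and 297 CPM under vehicle, against 107 and 85.5 in WT and 104 and 121 in KO under HHT, a change of -1.57 ± 0.16. Tubb5 held 1496 and 1525 CPM under vehicle and 556 to 619 under HHT, and Tubb4b held 1037 and 989 under vehicle and 365 to 475 under HHT. They changed by -1.33 ± 0.13 and -1.30 ± 0.13. Tubb3 held 1018 and 989 CPM under vehicle and 475 to 543 under HHT. Its change of -1.02 ± 0.12 was the smallest of the family, and its treatments still did not overlap.

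Over the family the median change in heavy was -1.41, against 0.06 over all 13973 genes, and was -1.68 for the alpha and -1.34 for the beta genes. All 10 passed an adjusted p of 0.05 in edgeR as lower, as did 24.7% of all genes. All 4 HHT libraries lay below both vehicle libraries for all 10 tubulins, as they did for 32.9% of all genes. Of all genes, 0.0143% had a lower estimate than Tuba1c, 0.279% than Tuba1a and 7.95% than Tubb3.

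**Figure D2:**
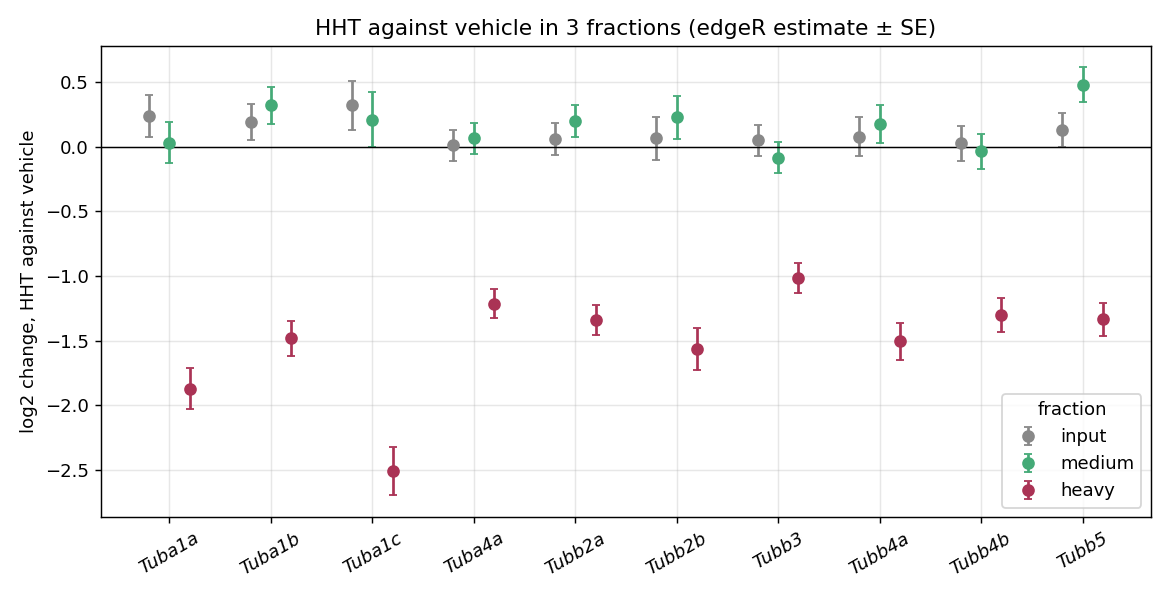
HHT against vehicle for each tubulin in input (grey), medium (green) and heavy (red), as the edgeR log2 change averaged over genotypes, with bars of 1 SE. Input and medium estimates lie between -0.09 and 0.48, while the heavy estimates run from -2.51 for Tuba1c to -1.02 for Tubb3.

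Input did not show this decrease. Estimates there ran from 0.01 ± 0.12 for Tuba4a to 0.32 ± 0.19 for Tuba1c (log2 ± SE), and 0 of the 10 passed 0.05 in edgeR (0 also at an unadjusted p under 0.05, and 0 with DESeq2), against 12.4% of all genes in either direction. For 0 tubulins did all HHT libraries lie below or above both vehicle libraries, as they did for 11.3% and 18.4% of all genes. Tuba1a held 1739 and 1840.5 CPM in vehicle input, against 1732 and 2077 in WT and 1798 and 2884 in KO under HHT. The KO HHT replicate 2 library was the highest of the 6 input libraries for 9 members, the exception being Tuba1c. Without that lysate the median change of the family in input was -0.05, against 0.07 with it, and it was -0.03 when libraries were scaled to total counts.

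In medium 1 tubulin rose under HHT. Tubb5, a widely expressed beta isotype, held 473 and 582 CPM in WT and KO vehicle, against 665 and 679 in WT and 751 and 836 in KO under HHT, with no overlap. Its change was 0.48 ± 0.14 (edgeR adjusted p = 0.0106), and 25.4% of all genes rose in medium. Without the WT vehicle lysate it did not pass. HHT libraries also lay above both vehicle libraries for Tuba1b (0.32 ± 0.14, adjusted p = 0.0814) and Tubb2b (0.22 ± 0.17, adjusted p = 0.303), as they did for 33.9% of all genes. The other 7 estimates ran from -0.09 ± 0.12 for Tubb3 to 0.21 ± 0.21 for Tuba1c.

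The ratio of heavy to input sets each heavy library beside the input of its own lysate, so a high or low input also moves the ratio. In the 2 vehicle lysates the ratio of Tuba1a was 2.75 in WT and 2.42 in KO. Under HHT it was 0.743 and 0.534 in WT and 0.718 and 0.476 in KO. The lowest, 0.476, came from KO HHT replicate 2. That lysate had the highest Tuba1a input (2884 CPM) and the highest Tuba1a level in HHT heavy (1373 CPM). For Tuba4a the vehicle ratios were 2.8 and 2.35, against 1.1 and 1.27 in WT and 1.06 and 0.996 in KO under HHT. The 2 alpha isotypes thus started near the same ratio and ended on different sides of 1 in 3 of 4 HHT lysates. Tubb3, with 2.12 and 1.98 under vehicle, held 1.02 and 1.02 in WT and 1.02 and 0.883 in KO under HHT. The family median was 2.59 and 2.29 in the WT and KO vehicle lysates and 0.681 to 0.913 in the 4 HHT lysates.

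**Figure D3:**
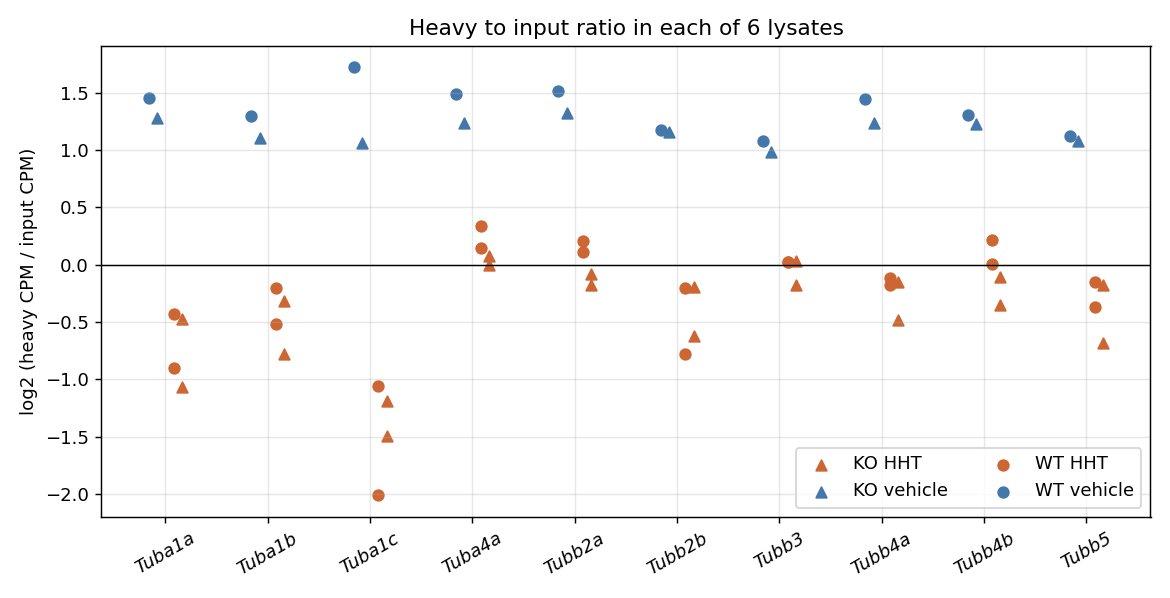
Log2 ratio of heavy to input CPM for each tubulin in each of 6 lysates; circles are WT, triangles KO, blue vehicle and orange HHT, and the line marks equal levels. All vehicle lysates lie between 0.99 and 1.72, and the HHT lysates between -2.01 for Tuba1c and 0.34 for Tuba4a.

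The shift of the heavy to input ratio under HHT was -1.52 at the family median, from -2.83 ± 0.27 for Tuba1c to -1.06 ± 0.17 for Tubb3 (log2 ± SE), and all 10 tubulins passed 0.05 as lower, as did 16.3% of all genes. The shift of heavy to medium was -1.73 at the median, from -2.72 ± 0.29 for Tuba1c to -0.93 ± 0.17 for Tubb3, and all 10 passed as lower, as did 18.4% of all genes. For medium to input 0 of 10 passed (0 also at an unadjusted p under 0.05, and 0 with DESeq2), against 17.3% of all genes in either direction, and the median was 0.08.

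After HHT all 10 estimates lay below 0 for medium against input. For heavy against input 8 lay below 0 and 2 above, and for heavy against medium 6 lay below and 4 above. Differences between isotypes were not tested. Heavy fell below input for Tuba1a (-0.74 ± 0.13, log2 ± SE), Tuba1b (-0.47 ± 0.11), Tuba1c (-1.44 ± 0.17), Tubb2b (-0.46 ± 0.14) and Tubb5 (-0.36 ± 0.11), which is 5 of 10 against 30.4% of all genes. Without WT HHT replicate 2 it was 2 of 10, without KO HHT replicate 2 it was 3, and scaled to total counts it was 8. The other 5 estimates ran from -0.24 ± 0.12 for Tubb4a to 0.14 ± 0.10 for Tuba4a. Of all 13973 genes, 4250 fell in this comparison in the main fit and 6090 when scaled to total counts. Heavy rose above medium for Tuba4a (0.35 ± 0.10), Tubb2a (0.32 ± 0.10) and Tubb4b (0.35 ± 0.11), against 19% of all genes, and fell below it for Tuba1c (-0.53 ± 0.17), against 16.8%. Without KO HHT replicate 2, or without WT HHT replicate 2, 0 of these 4 calls were made, and scaled to total counts 0 tubulins rose and 2 fell. Of all genes, 2648 rose and 2354 fell for heavy against medium in the main fit, and 1626 rose and 4282 fell with total counts. Shares of all genes are not given here for the fits with a lysate left out. Medium fell below input for Tuba1a (-0.60 ± 0.13), Tuba1b, Tuba1c (-0.90 ± 0.16), Tubb2a, Tubb2b and Tubb4b, which is 6 of 10 against 17% of all genes. Without WT HHT replicate 2, or without KO HHT replicate 2, 1 tubulin was called, and without WT HHT replicate 1 it was 3.

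The make-up of tubulin mRNA in the heavy fraction differed between treatments, which is given as a description with no test. Tuba1a, the main neuronal alpha gene, made up 56.9% ± 0.18 (SD, n = 2) of the alpha tubulin rescaled TPM in vehicle heavy and 48.1% ± 1.93 (n = 4) in HHT heavy, with no overlap (56.7% to 57% against 45.3% to 49.7%). Tuba4a went the other way, from 18.8% ± 0.16 to 25.1% ± 2.38. Tuba1b stood at 23.9% ± 0.28 and 26.5% ± 0.60. In the beta class Tubb4a stood at 39% ± 0.36 under vehicle and 35.4% ± 0.67 under HHT, and Tubb3 at 9.8% ± 0.18 and 12.5% ± 0.29, both without overlap. In input the same shares overlapped between treatments for Tuba1a, Tubb4a and Tubb3. Tuba4a held 18.4% ± 0.63 there under vehicle and 16.4% ± 1.61 under HHT, the reverse of its order in heavy, with ranges that nearly touched (17.91% to 18.8% against 14.6% to 17.86%).

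**Figure D4:**
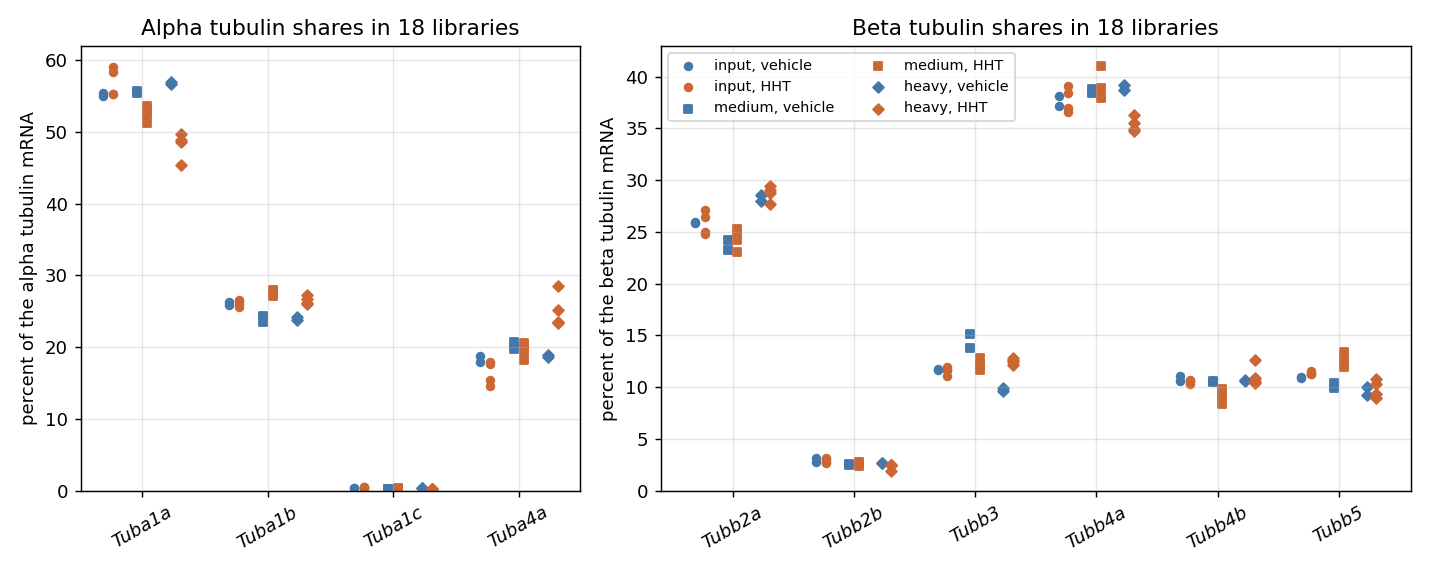
Share of each isotype in the alpha tubulin (left) or beta tubulin (right) rescaled TPM, in percent; each point is 1 of 18 libraries, circles are input, squares medium and diamonds heavy, blue is vehicle and orange HHT. In heavy, the Tuba1a and Tubb4a points are lower and the Tuba4a and Tubb3 points higher under HHT than under vehicle.

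Summed over isotypes, the ratio of alpha to beta mRNA (rescaled TPM) in heavy was 0.859 ± 0.01 (SD, n = 2) under vehicle and 0.718 ± 0.05 (n = 4) under HHT, without overlap (0.852 to 0.867 against 0.655 to 0.76). In input it was 0.839 ± 0.01 under vehicle and 0.908 ± 0.04 under HHT, the HHT libraries being the higher ones. All 10 mRNAs together made up 2.87% ± 0.10 of the rescaled TPM in vehicle heavy and 1.19% ± 0.07 in HHT heavy. In medium they made up 0.973% ± 0.12 and 1.15% ± 0.07 of the rescaled TPM, without overlap, but 0.708% ± 0.07 and 0.728% ± 0.05 of the estimated counts, which overlapped. As a share of estimated counts in heavy they made up 1.76% ± 0.08 under vehicle and 0.653% ± 0.03 under HHT. In input they held 1.37% ± 0.04 and 1.37% ± 0.19 of the rescaled TPM.

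Longer coding sequences can carry more ribosomes, so the tubulins were set beside the 1747 other genes of 400 to 500 codons. In that class the median HHT change in heavy was -0.02, with 10% of genes below -1.16 and 10% above 1.33 (log2), and 32.2% of the class fell. Only 1 gene of the class had a lower estimate than Tuba1c and 2 had a lower one than Tuba1a. For Tubb2b the number was 37, for Tubb4a 48, for Tuba1b 54 and for Tubb2a 106. For Tubb5 it was 109, for Tubb4b 118, for Tuba4a 155 and for Tubb3 247, which is 14.1% of the class. In vehicle slices the class median of heavy against input was 0.05, and 93.2% of the class lay below Tubb3, the lowest tubulin. A coding length was found for 93.5% of all genes.

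**Figure D5:**
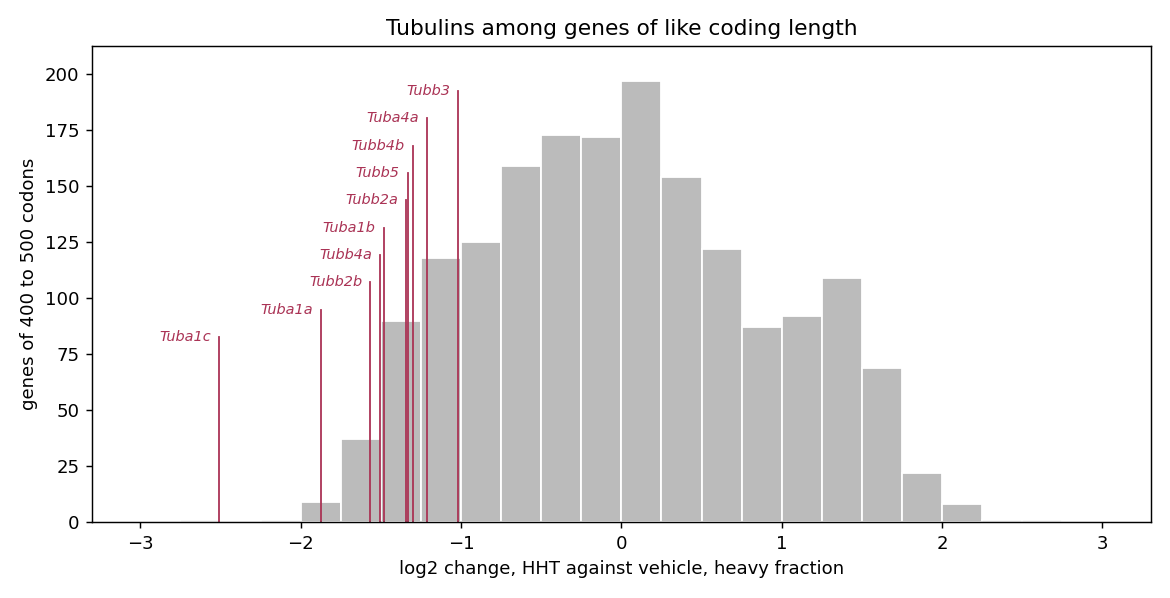
Histogram of the HHT change in the heavy fraction (log2, bins of 0.25) over the 1747 other genes of 400 to 500 codons, with a line for each tubulin whose height has no meaning. All 10 lines lie at or below -1.02, while the class median is -0.02.

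KO against WT asks whether tubulin mRNA depends on FMRP. Under HHT, with 2 libraries per genotype, 0 of 10 tubulins passed 0.05 in edgeR in any of the 3 fractions, and 0% of all genes did. Fmr1 itself did not pass, at -2.00 ± 0.27 in input, -1.61 ± 0.28 in medium and -1.54 ± 0.30 in heavy (log2 ± SE). Its edgeR adjusted p was 0.0647, 0.722 and 0.751. The absence of calls therefore does not show that tubulin mRNA is independent of FMRP. At an unadjusted p under 0.05 there were 679 genes for input, 387 for medium and 412 for heavy, 0 of them tubulins, and DESeq2 called 0 tubulins and 4, 2 and 1 genes. As a family median, KO minus WT was 0.24 for input, 0.12 for medium and 0.07 for heavy (log2), with single-gene SEs from 0.14 to 0.26. In medium both KO libraries lay above both WT libraries for 6 tubulins (Tuba1a, Tuba1b, Tuba4a, Tubb2a, Tubb4a and Tubb5), as they did for 17.2% of all genes. In input they did so for Tuba4a and Tubb2a, as for 13.4% of all genes, and in heavy for Tuba1a and Tubb5, as for 18.1%. Tuba1a had the largest KO estimate in input, 0.30 ± 0.19, and in medium, 0.27 ± 0.19, and Tubb2b in heavy, 0.23 ± 0.19. With the replicate number as a block, in a fit on the HHT medium libraries alone, Tuba1a passed (0.27 ± 0.07, edgeR adjusted p = 0.0178). WT and KO lysates share only that number, and genes outside the family were called in that fit too. Without the block the estimate of 0.27 ± 0.19 did not pass, so this call does not show an effect of genotype on Tuba1a. Without KO HHT replicate 2, the library with high tubulin in input, the input median was -0.03.

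Under vehicle, where each genotype has 1 library and the difference was not tested, KO minus WT had a family median of 0.08 for input, 0.22 for medium and -0.10 for heavy. The test of whether the HHT effect differed between genotypes passed for 0 tubulins in any fraction (edgeR), with 0 also at an unadjusted p under 0.05 and 0 with DESeq2, and for 0% of all genes. The family median of that difference was 0.19 for input, -0.06 for medium and 0.14 for heavy, with SEs of 0.24 to 0.42 for single tubulins, so differences of the size of the genotype medians were not detectable at this replication. In heavy, fitted on WT libraries alone and on KO libraries alone, all 10 tubulins were lower under HHT.

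Among the 10 members the profiles over 18 libraries (log2 CPM, centred on each gene's mean) were most alike for Tuba4a and Tubb2a, with a root mean square difference of 0.08. They were least alike for Tuba1c and Tuba4a, at 0.58. Of 4284 other genes with a mean of at least 50 CPM, the nearest to the family's median profile was Eno1, the glycolytic enzyme enolase, at 0.07. It changed by -1.62 ± 0.13 (log2 ± SE) in heavy under HHT and by 1.43 ± 0.16 from input to heavy in vehicle. Next came Abcf2 (0.08), Rpa1, a single-stranded DNA binding subunit (0.1), Gpi1, glucose-6-phosphate isomerase (0.11), and Acss2, an acetyl-CoA synthetase (0.11). For single members the nearest genes were Phgdh for Tuba1a, Eno1 for Tuba1b, Aldoc for Tuba1c, Got2 for Tubb2b, Ehd1 for Tubb3, Abcf2 for Tubb4a and Cs for Tubb5. Ppp2r1a, the scaffold subunit of phosphatase PP2A, was nearest to Tuba4a, Tubb2a and Tubb4b. Eno1 (0.0684) was nearer to the family median than any tubulin, the nearest of which was Tubb4a (0.0704). Of the 4284 genes, 1 was nearer than Tubb4a, 63 were nearer than Tubb3 and 1069 nearer than Tuba1c. The profile is thus not particular to the tubulins. These distances describe 18 libraries that share lysates.

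All 6 measured tubulin genes outside the list had estimates below 0 under HHT in both polysome fractions. Of all genes, 27.1% rose and 24.7% fell in heavy, and 25.4% rose and 21.5% fell in medium. Counts for the gene lists that follow are read beside these shares. Most genes named from these lists were picked for the smallest p for HHT against vehicle in medium. Their medium p-values were thus selected, and a weaker value in heavy can follow from that choice. Of 6 measured (Tuba8, Tubb6, Tubg1, Tubg2, Tubd1 and Tube1), 3 fell in heavy under HHT and 4 fell in medium, with medians of -0.49 and -0.71. Tubb6, a beta isotype, fell in both, by 0.86 ± 0.19 in heavy (edgeR adjusted p = 0.00154) and 1.03 ± 0.18 in medium (adjusted p = 0.000501). Tubg1, the gamma tubulin that seeds microtubules, fell by 0.72 ± 0.15 in heavy (adjusted p = 0.000919) and by 0.80 ± 0.14 in medium (adjusted p = 0.000652). Tuba8 fell by 0.69 ± 0.18 in heavy (adjusted p = 0.00569) and by 0.78 ± 0.18 in medium (adjusted p = 0.00292). The family members had medium estimates between -0.09 and 0.48.

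The folding machinery split by complex. Of 14 chaperonin and prefoldin genes 8 fell in heavy under HHT, and these were the 8 subunits of CCT, which encloses new tubulin and actin chains. This split was seen in the values and not set beforehand, and the complexes were not matched for coding length. CCT changes ran from -1.84 for Cct3 to -1.25 for Cct2, with a median of -1.72, and in vehicle the 8 subunits were higher in heavy than in input by 0.72 to 1.23. The 6 prefoldin genes had heavy estimates between -0.22 and 0.53 and medium estimates between -1.14 ± 0.21 for Vbp1 (edgeR adjusted p = 0.000733) and -0.66 ± 0.19 for Pfdn2. Pfdn1 fell in medium by 0.995 ± 0.19 (adjusted p = 0.000858). Over the 14 genes the median in heavy was -1.40, against 0.06 over all genes, and in medium 7 fell.

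Of 7 folding cofactors, 3 fell and 1 rose in heavy. The genes named in this paragraph were picked for a small p in medium. Their medium p-values only describe that choice, and their differences between medium and heavy were not tested apart from it. Their changes were not set beside genes of like coding length. In medium Arl2, the small GTPase of the cofactor complex, fell by 1.32 ± 0.16 (edgeR adjusted p = 9.52e-05) and Tbcb by 1.34 ± 0.20 (adjusted p = 0.000199), and neither passed in heavy (-0.09 ± 0.17 and -0.25 ± 0.21). Of 4 autoregulation genes 1 fell in heavy. Ttc5, the reader of nascent tubulin, fell in medium by 0.94 ± 0.14 (adjusted p = 0.000228) and stood at -0.29 ± 0.15 in heavy, and Cnot1, the scaffold of the CCR4-NOT deadenylase, rose in medium by 0.69 ± 0.16 (adjusted p = 0.00377). Of 13 measured tubulin-modifying enzymes 3 rose and 4 fell in heavy. Atat1, the alpha tubulin acetyltransferase, fell there by 0.75 ± 0.15 (adjusted p = 0.000887), while the deacetylase Hdac6 stood at -0.25 ± 0.14 in heavy and rose in medium by 0.77 ± 0.15 (adjusted p = 0.000922).

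Genes of proteins that bind or cut microtubules moved in both directions. Those named below were also picked for a small p in medium, so stronger changes there than in heavy can follow from the choice. Of 10 measured destabilizing and severing genes 7 fell and 1 rose, with a median of -0.44. Stmn1, which sequesters tubulin dimers, fell by 0.46 ± 0.17 in heavy and by 1.41 ± 0.17 in medium (edgeR adjusted p = 9.54e-05). Of 9 microtubule-associated proteins 6 fell and 1 rose in heavy, with a median of -0.54. Map1a and Map2, which stabilise microtubules in dendrites, rose in medium by 1.30 ± 0.19 (adjusted p = 0.000209) and 1.13 ± 0.16 (adjusted p = 0.000199). In heavy they stood at 0.20 ± 0.18 and 0.14 ± 0.16. The changes of these named genes were not set beside genes of like coding length. Of 8 gamma tubulin ring complex genes 3 fell in heavy, with a median of -0.36, and Mzt1 and Mzt2 stood at 0.42 ± 0.23 and 0.20 ± 0.19.

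Actin, the other abundant cytoskeletal protein and a CCT substrate, was measured through 10 genes, of which 7 fell in heavy, with a median of -0.52. The lowest was Actb, the beta actin gene, at -1.76 ± 0.14 in heavy and 1.55 ± 0.17 from input to heavy in vehicle, named after its values were seen. Cfl1 and Capzb were picked for a small p in medium, so their larger changes there can follow from the choice. The actin genes were not set beside genes of like coding length. The actin-severing Cfl1 fell by 0.48 ± 0.16 in heavy and by 1.37 ± 0.16 in medium (edgeR adjusted p = 9.52e-05). Capzb, which caps actin filaments, fell by 0.56 ± 0.16 in heavy and by 1.22 ± 0.15 in medium (adjusted p = 0.000107). In input 0 of the 10 actin genes, 0 of the 14 chaperonin and prefoldin genes and 0 of the 6 other tubulins passed, against 12.4% of all genes in either direction.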

How the data were processed

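Total RNA of input, medium and heavy fractions was sequenced for 18 libraries. Build mm10 and the tools RSEM 1.2.11, Bowtie2 2.1.0, Trimmomatic 0.32 and DESeq2 1.16.1 are listed, per the submitters' processing notes, with no roles. The authors deposited estimated counts (expected counts) for 13973 genes, with 0 of 251514 values whole, and a score named TPM, called rescaled TPM here because its sums exceed those of TPM in 10 of 18 libraries. Rounded counts entered a single model of 12 group means (edgeR 4.0.16 quasi-likelihood test under R 4.3.3, TMM scaling, 6 residual and 7.36 prior degrees of freedom), 2-sided, with Benjamini-Hochberg adjustment over all genes in each of 18 comparisons at 0.05. Vehicle groups hold 1 library each and are assumed to vary like the HHT groups, and p-values measure the spread between pooled-animal lysates. That spread is estimated from the HHT replicates alone. Fractions of a lysate enter the model as separate libraries, so the 6 residual degrees of freedom do not come from separate lysates. The low-count filter kept all genes. SE is the change divided by the root of F. CPM use TMM-scaled totals. HHT against vehicle weighs genotypes equally. Library totals were 6226237 to 13834652, and intervals cover the spread of these libraries only.

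Input, medium and heavy of a replicate share a lysate, so fractions are paired by design. Deviations of libraries of 1 lysate correlated across genes at r = 0.349, 0.0509 and 0.0654 in WT and 0.211, 0.056 and 0.0142 in KO for medium with input, heavy with input and heavy with medium. The members, gene lists and tests were chosen with earlier results of these data known. Named list genes are the 2 per list with the smallest p for HHT against vehicle in medium and a mean of at least 5 CPM; the nearest profiles use genes of at least 50 CPM. A gene that this rule names and a sequence are not reported here. Tuba8, Actb, Pfdn2, Cct2 and Cct3 were named after their values were seen. Coding sequences and positions came from GENCODE M21. The names of the deposited tables carry a 2 and the word batch. Whether the values were adjusted for batch, and which libraries would form one, is not given in these sources, so within-batch values were not computed. The fit was tested on simulated data. Other ways tried were DESeq2 1.42.0, limma 3.58.1 on log2 rescaled TPM with pseudocounts of 1 and 0.1, RLE factors, total counts, no filter, subsets of libraries and blocks.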

Additional observations from a re-analysis of the deposited data

How the results depend on the processing

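In all 17 other ways run, the 10 tubulins kept a negative HHT estimate in heavy (-2.74 to -0.78) and passed 0.05, and they passed as higher in heavy than in input and in medium under vehicle. The same held for the HHT shift of heavy to input. In the shift of heavy to medium, Tubb3 was the exception and did not pass in KO libraries alone (estimates of the tubulins over all ways -3.01 to -0.78). No estimate that had passed changed direction. The number of tubulins called was less stable elsewhere, and the cause was not tested. No count of tubulins in this paragraph stands beside the share of all genes called in the same way, so these counts describe the family alone. For HHT in medium it was 1, and 0 in KO libraries alone, 3 with the HHT lysates numbered 1 alone, 2 in a fit on that fraction alone, 2 with limma at either pseudocount, and 0 to 1 with 1 lysate left out. For medium against input under vehicle it was 3, and 5 with total counts, 0 in WT and 0 in KO libraries alone, 9 with HHT lysates numbered 1, 6 and 5 with limma (pseudocounts 1 and 0.1), and 0 to 4 with 1 lysate left out. For medium against input under HHT it was 6, and 2 in WT and 1 in KO libraries alone, 2 with lysates numbered 1, 3 with limma (0.1), and 1 to 6 with 1 lysate left out. For heavy against input under HHT it was 5, and 8 with total counts, 3 in KO libraries alone, 3 with lysates numbered 1, and 2 to 6 with 1 lysate left out. For heavy against medium under HHT it was 4, and 2 with total counts, 0 in WT and 0 in KO libraries alone, 0 with lysates numbered 1, and 0 to 4 with 1 lysate left out. For the shift of medium to input it was 0, and 2 with lysates numbered 1 and 1 with limma (pseudocount 1). Total counts moved the median of all genes from -0.02 to -0.41 for heavy against input and from -0.08 to -0.42 for heavy against medium under vehicle, and the higher share of called genes from 53.4% to 25.3% and from 48% to 31.4%; the tubulins' medians were then 0.91 and 1.33. Under HHT that share moved from 47.6% to 28.1% for heavy against input, from 52.9% to 27.5% for heavy against medium and from 44% to 33.2% for medium against input. It moved from 51.8% to 40.5% for medium against input under vehicle, from 98.3% to 85.8% for HHT in input, and from 43.6% to 60.4% and 49.6% to 62.7% for the shifts of heavy to input and to medium. Tuba1c rested on as few as 50.9 counts.

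With the lysate as a replicate block, 7 tubulins were called for medium against input under vehicle, and it changed no other count of tubulins by over 1.5 times. WT and KO samples share only a replicate number: deviations of same-numbered libraries correlated at r = 0.323, 0.165 and 0.00332 in input, medium and heavy. With that number as a replicate block, KO against WT called 0, 1 and 0 tubulins and 6, 306 and 62 genes, against 0 in each without it. The tubulin called was Tuba1a, higher in KO in medium.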
